A study of Mus musculus with 12 samples.

Results

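The genes of 9 RNA-binding proteins that set tissue-specific splicing patterns were followed through mouse upper-jaw development, namely Ptbp1, Ptbp2, Mbnl1, Mbnl2, Mbnl3, Rbfox2, Celf1, Celf2 and Qk. They were picked by name for a known role in alternative splicing, with no threshold on their values, and they are 9 of the 53801 genes counted. Each symbol matched 1 Ensembl gene, and all 9 passed the filter on low counts. Polyadenylated RNA was sequenced from the intact maxillary prominence of C57BL/6 embryos, an inbred strain, with no mutation, transgene or treatment named in the labels, on embryonic days 10.5, 11.5, 12.5 and 14.5 (called E10.5 and so on). Each stage has 3 libraries, which makes 12. The prominence is a facial swelling of neural crest mesenchyme under a surface epithelium from which the upper jaw and palatal shelves form. Tissue came from littermates, and the labels do not say how many embryos made up a library or whether the 3 libraries of a stage came from separate litters. E14.5 is described in a block of labels of its own, so that this stage and any difference in its handling cannot be told apart.

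Alternative splicing joins different exons of the same gene in different tissues, and these proteins steer the choice by binding short motifs in the nascent transcript. Ptbp1 binds pyrimidine-rich RNA and holds neural and muscle exons out of messages in most dividing cells, and its paralogue Ptbp2 does related work in developing neurons. Muscleblind proteins (Mbnl1, Mbnl2, Mbnl3) and CELF proteins (Celf1, Celf2) act on many of the same exons, often in opposite directions, and in mouse heart and skeletal muscle the balance between them shifts as the tissue matures. Rbfox2 binds GCAUG motifs, and its loss from mouse neural crest disturbs formation of the face and palate. Qk, the quaking protein, binds ACUAA motifs and is best known from glia, muscle and vessels.

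In outline, Ptbp1, Ptbp2 and Celf1 were lower at E14.5 than at E10.5, while Mbnl1, Mbnl2, Mbnl3, Rbfox2 and Celf2 were higher, and Qk moved least. The largest movements were a 3.38-fold rise of Celf2 and a 3.11-fold fall of Ptbp2. Most of the movement came after E11.5. Levels below are normalised CPM, the read counts per gene set against library size after TMM scaling, a method that sets sizes so that most genes do not differ. Calls are adjusted p-values under 0.05 (Benjamini-Hochberg, over all 18365 genes tested) in the quasi-likelihood test of edgeR. The test answers which genes differed between stages beyond the spread of their libraries.

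Promoters are shown for 3 members, each with a single window, because Ptbp2 and Celf1 fell at the same steps and Mbnl2 rose at those steps. Each window holds 300 bases, 250 before the RefSeq transcription start and 50 after it, read 5′ to 3′ on the strand of the gene (RefSeq, GRCm38.p6). Capitals mark matches on either strand to GGGCGG, the core of the binding site of Sp family factors, and to CCAAT, the box bound by NF-Y. The Ptbp2 window lies at chr3:119783339-119783638 on the minus strand, that of Celf1 at chr2:90940147-90940446 on the plus strand, and that of Mbnl2 at chr14:120275419-120275718 on the plus strand.
Ptbp2: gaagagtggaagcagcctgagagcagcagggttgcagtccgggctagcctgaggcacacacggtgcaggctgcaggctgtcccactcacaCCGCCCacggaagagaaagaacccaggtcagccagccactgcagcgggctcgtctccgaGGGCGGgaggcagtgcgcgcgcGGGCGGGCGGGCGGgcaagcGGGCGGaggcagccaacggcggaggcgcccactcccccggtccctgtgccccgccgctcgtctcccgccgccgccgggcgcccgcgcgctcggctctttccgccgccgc
Celf1: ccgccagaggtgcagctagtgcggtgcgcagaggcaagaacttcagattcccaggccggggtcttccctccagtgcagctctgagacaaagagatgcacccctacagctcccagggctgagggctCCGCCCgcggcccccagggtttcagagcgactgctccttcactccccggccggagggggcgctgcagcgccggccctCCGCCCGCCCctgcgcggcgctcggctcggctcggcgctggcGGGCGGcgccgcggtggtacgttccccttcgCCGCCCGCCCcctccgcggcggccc
Mbnl2: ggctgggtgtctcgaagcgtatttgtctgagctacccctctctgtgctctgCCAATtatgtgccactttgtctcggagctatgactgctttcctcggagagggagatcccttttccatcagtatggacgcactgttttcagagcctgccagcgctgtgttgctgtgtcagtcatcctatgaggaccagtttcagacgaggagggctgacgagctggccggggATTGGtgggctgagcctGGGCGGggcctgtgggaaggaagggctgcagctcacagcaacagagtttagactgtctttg
Overlapping matches were each counted. GGGCGG occurred 6 times in the Ptbp2 window, 6 times in that of Celf1 and 1 time in that of Mbnl2, and 35.7% of 32851 RefSeq promoters held it at least 1 time. CCAAT occurred 2 times in the Mbnl2 window, against 37.4% of promoters with a match, and these letters are not in the other 2 windows. The Ptbp2 window held 36 CpG pairs and the Celf1 window 34, more than 93.8% and 92.3% of promoters, while the Mbnl2 window held 10 and the median promoter held 7. TATAAA, found in 13.6% of promoters, and the palindromic NRF1 motif, found in 0.971%, were searched for as well and had no match in these 3 windows. Celf2, which rose at those steps as well, has 5 windows with 4, 6, 6, 48 and 8 CpG pairs, and the window with 48 holds GGGCGG 3 times. The windows of Ptbp1, which fell, Mbnl3, which rose, and Qk, the flattest member, held 22, 19 and 57 CpG pairs. They held GGGCGG 1, 0 and 5 times. Mbnl1, which rose, has windows with 2 and 41 CpG pairs, with GGGCGG 0 and 4 times. CCAAT occurred 1 time in the Ptbp1 window and 2 times in the Mbnl1 window with 2 CpG pairs. A match is a description of the letters. Promoters were available for 8 of the 9 members.

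Ptbp1 (ENSMUSG00000006498, chromosome 10, positions 79854427 to 79864771, mm10) was the member with the highest level per exon length at every stage. It had 497, 493 and 488 normalised CPM in the E10.5 libraries, 442, 408 and 459.9 at E11.5, 413, 409 and 383 at E12.5, and 295, 316 and 298 at E14.5. All 3 E14.5 libraries lay below every earlier library. The level at E14.5 was 1.33-fold lower than at E12.5 (log2 fold change -0.41, SE 0.077, edgeR adjusted p = 0.000813) and 1.63-fold lower than at E10.5 (-0.70, SE 0.078, adjusted p = 2.63e-06). The earlier steps did not pass, at -0.17 for E11.5 against E10.5 (adjusted p = 0.118) and -0.12 for E12.5 against E11.5 (adjusted p = 0.210). DESeq2 called both, at adjusted p = 0.0321 and 0.0446, and adjusted p ranged up to 1 over the alternatives to each step. The library kit does not mark strand, and 20.7% of the Ptbp1 exon bases overlap genes on the other strand (E130317F20Rik, Plppr3, Gm17134), so reads in those bases cannot be assigned between them.

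Ptbp2 (ENSMUSG00000028134, chromosome 3, positions 119718742 to 119784466) was abundant early and fell at both later steps. It had 324, 339.8 and 289 normalised CPM at E10.5, 301, 308 and 320.2 at E11.5, 187, 145 and 149 at E12.5, and 97.2, 105 and 104 at E14.5. The E10.5 and E11.5 libraries overlapped, and the later stages lay wholly below them and apart from each other. Ptbp2 fell by 0.95 on the log2 scale at E12.5 against E11.5 (SE 0.10, edgeR adjusted p = 1.69e-05), 1.93-fold, and by 0.65 at E14.5 against E12.5 (SE 0.10, adjusted p = 0.000180). Over the whole course the log2 fold change was -1.64 (SE 0.10, adjusted p = 1.53e-08). At E11.5 against E10.5 it was -0.04 (adjusted p = 0.830). The calls at E12.5 against E11.5 and at E14.5 against E10.5 held under all 23 alternatives.

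Neuron markers are given beside this gene because Ptbp2 protein is known from neurons. The summed level of 8 neuron markers (Tubb3, Elavl3, Elavl4, Stmn2, Isl1, Pou4f1, Dcx, Snap25) was 339 to 699 normalised CPM at E10.5, 124 to 217 in the E11.5 libraries, 81.3 to 302 in the E12.5 libraries, and 92.9 to 193 by E14.5. At E11.5 against E10.5, 6 of the 8 fell and none rose, at the step where Ptbp2 was not called. At E12.5 against E11.5, 4 of them rose and none fell, at the step where Ptbp2 fell most. At E14.5 against E12.5, 3 fell and none rose, and at E14.5 against E10.5, 6 fell and none rose, and Ptbp2 fell in both. Of all genes, 12.9%, 22.2%, 24.0% and 33.8% were called lower in these 4 comparisons, and 12.2%, 27.1%, 23.0% and 36.6% higher. Among the E12.5 libraries, replicate 1 had the highest Ptbp2 level and the lowest neuron sum, 81.3 normalised CPM. At E11.5, replicate 3 had the highest Ptbp2 level and the lowest neuron sum (124, against 130 in replicate 1). At E14.5, Ptbp2 was nearly tied between replicate 2 (104.57), with the lowest neuron sum (92.9), and replicate 3 (104.32), with the highest (193). At E10.5, replicate 2 had both the highest Ptbp2 level (339.8) and the highest neuron sum (699). Scaled by library totals alone, Ptbp2 was highest in replicate 3 at E14.5 (119.2 CPM, against 115.5 in replicate 2). On that scale it was highest in replicate 1 at E10.5 (290.1, against 289.4 in replicate 2), which had the lowest neuron sum, 339. In bulk tissue, fewer cells of a type and less RNA per cell cannot be told apart.

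Counts per gene add up all isoforms, which bears on Ptbp2 in particular. In mammalian cells Ptbp1 protein causes skipping of a 34-base exon of Ptbp2, and messages without that exon are degraded. The annotation (GENCODE, mm10) places this exon at chr3:119724612-119724645 on the minus strand, in 3 of the 13 Ptbp2 transcripts, and all 3 are protein-coding. The exon is printed because the counts do not tell messages with it from messages without it.
Ptbp2 exon: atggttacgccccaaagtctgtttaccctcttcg
Of the 13 annotated transcripts, 2 are marked for nonsense-mediated decay. Exon use was not analysed here, so the fall of Ptbp2 is a fall in the sum over its transcripts.

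The balance between the paralogues was compared within each library, where scaling of the library has no effect. The ratio of Ptbp2 to Ptbp1 counts per kilobase of exon was 0.337, 0.356 and 0.305 at E10.5, 0.352, 0.389 and 0.360 at E11.5, 0.234, 0.183 and 0.2004 at E12.5, and 0.170, 0.171 and 0.181 at E14.5. The E10.5 and E11.5 libraries overlapped, and E12.5 and E14.5 lay below them and apart from each other. The mean was 0.174 ± 0.00600 at E14.5, against 0.333 ± 0.0258 at E10.5 (SD, n = 3 each), and stages differed in an exact permutation test over the 369600 assignments of libraries to stages (one-sided on the between-stage variation, p = 0.000130, adjusted over 4 ratios 0.000519). The smallest p this test can give is 6.49e-05. Both genes fell, and Ptbp2 fell further.

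Qk (ENSMUSG00000062078, chromosome 17, positions 10202601 to 10319854) was the flattest member. It had 284, 288 and 288 normalised CPM at E10.5, 273, 284 and 269.9 at E11.5, 244, 201 and 264 at E12.5, and 247, 244 and 248 at E14.5. The E14.5 libraries lay below all E10.5 libraries, while the E12.5 libraries spread on both sides of E14.5. Qk passed only at E14.5 against E10.5, at a log2 fold change of -0.22 (SE 0.090, edgeR adjusted p = 0.0438). That call was kept under 10 of 23 alternatives, with adjusted p between 0.00843 and 1, and it turned to 0.11 (adjusted p = 0.379) when libraries were scaled by their totals alone. It was lost without any 1 of the 3 E10.5 libraries, any 1 of the 3 E14.5 libraries or E11.5 replicate 1 or 3, with log2 fold changes of -0.24 to -0.21 and adjusted p of 0.0520 to 0.131.

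**Figure D1:**
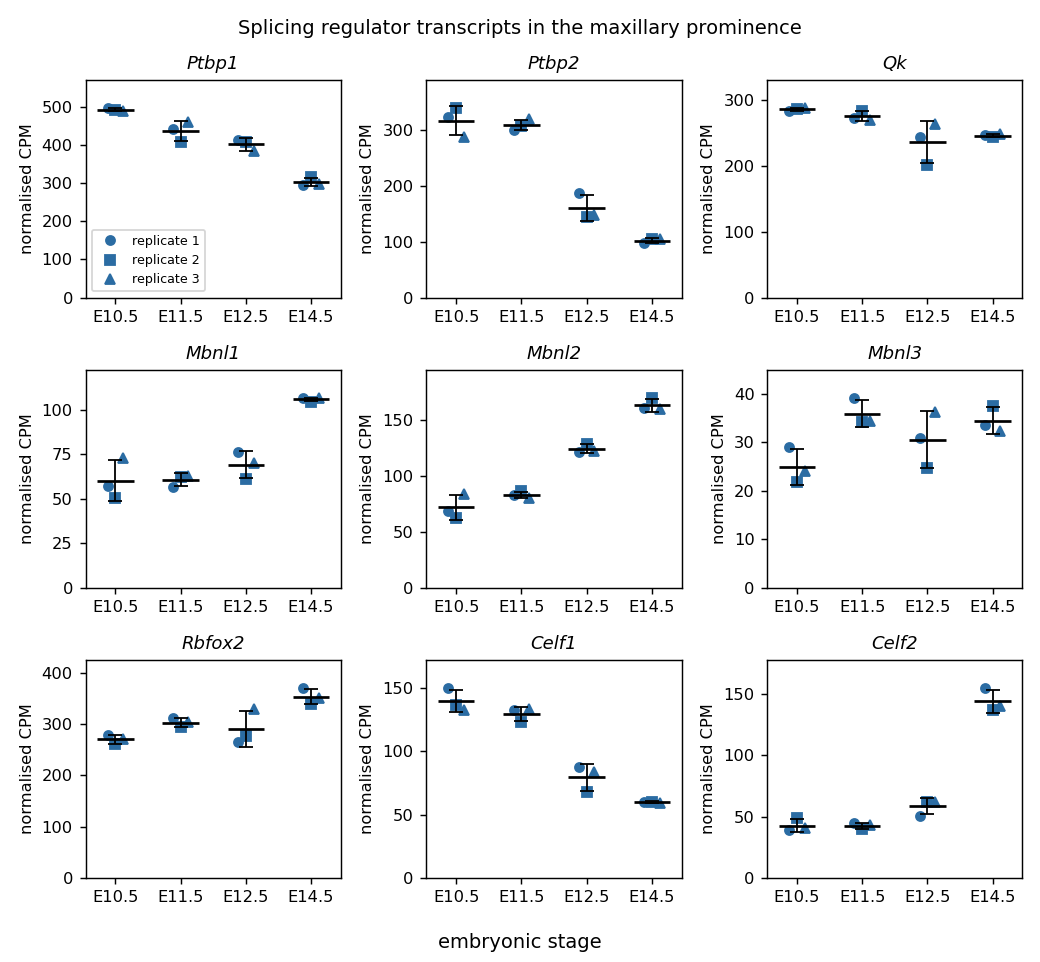
Normalised CPM (y axis, from 0, a scale of its own in each panel) of the 9 splicing regulators in each library at E10.5, E11.5, E12.5 and E14.5 (x axis), with points for libraries, horizontal bars for stage means and error bars for the SD of 3 libraries. Ptbp1, Ptbp2 and Celf1 are lowest at E14.5, where Celf2 reaches 137 to 155 against 38.8 to 48.6 at E10.5.

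The muscleblind genes encode zinc-finger proteins that bind YGCY motifs, and all 3 were higher at E14.5 than at E10.5. Mbnl2 (ENSMUSG00000022139, chromosome 14, positions 120275669 to 120431697) had 69.1, 62.7 and 83.8 normalised CPM at E10.5, 82.7, 86.3 and 80.5 at E11.5, 121, 129 and 122 at E12.5, and 160.4, 169 and 159 at E14.5. The first 2 stages overlapped, and E12.5 and E14.5 each lay above all earlier libraries. Mbnl2 rose 1.49-fold at E12.5 against E11.5 (log2 fold change 0.58, SE 0.092, edgeR adjusted p = 0.000300) and 1.31-fold at E14.5 against E12.5 (0.39, SE 0.092, adjusted p = 0.00339). Over the whole course it rose 2.27-fold (1.18, SE 0.093, adjusted p = 1.23e-07), a call that held under all 23 alternatives. The E12.5 rise was lost when the share of alignments outside genes entered as a covariate (0.19, adjusted p = 0.400, range over alternatives 5.20e-08 to 0.747). That share was 2.16% to 2.42% at E11.5 and 5.03% to 5.43% at E12.5, so that stage and covariate can hardly be told apart there. At E11.5 against E10.5 the log2 fold change was 0.21 (adjusted p = 0.115), which passed without E10.5 replicate 3 (0.34, adjusted p = 0.00743, range over alternatives 0.00483 to 1).

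Mbnl1 (ENSMUSG00000027763, chromosome 3, positions 60472830 to 60629750), the muscleblind best known from myotonic dystrophy, moved late. It had 57.3, 50.1 and 72.8 normalised CPM at E10.5, 56.4, 62.4 and 62.8 at E11.5, 76.4, 61.2 and 69.9 at E12.5, and 106, 104 and 106 at E14.5. The first 3 stages overlapped one another, and every E14.5 library lay above them. Mbnl1 rose 1.53-fold at E14.5 against E12.5 (log2 fold change 0.61, SE 0.12, edgeR adjusted p = 0.000942) and 1.76-fold at E14.5 against E10.5 (0.81, SE 0.12, adjusted p = 3.59e-05). The last value was 0.38 with the covariate for alignments outside genes (adjusted p = 0.0792, range over alternatives 1.23e-13 to 0.0792). At E12.5 against E11.5 it was 0.19 (adjusted p = 0.197).

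Mbnl3 (ENSMUSG00000036109, X chromosome, positions 51117269 to 51206532), which in mice has been linked to holding back muscle differentiation, had the lowest counts of the family. It had 29.1, 21.9 and 23.98 normalised CPM at E10.5, 39.1, 34.1 and 34.4 at E11.5, 30.8, 24.6 and 36.3 at E12.5, and 33.6, 37.6 and 32.2 at E14.5. The E10.5 libraries lay below all E11.5 and E14.5 libraries, and the E12.5 libraries overlapped every stage. Mbnl3 was the only member that rose at E11.5 against E10.5, 1.43-fold (log2 fold change 0.52, SE 0.14, edgeR adjusted p = 0.0142). That call was lost without E10.5 replicate 2 (0.45, adjusted p = 0.0532) or without E11.5 replicate 1 (0.46, adjusted p = 0.0637), with a range over alternatives of 5.81e-05 to 1. At E14.5 against E10.5 it was 0.46 (SE 0.14, adjusted p = 0.00843), which without E10.5 replicate 2 became 0.35 (adjusted p = 0.0571) and with the covariate for alignments outside genes 0.52 (adjusted p = 0.136, range over alternatives 0.000436 to 0.808).

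Mbnl3 lies on the X chromosome, and Xist, the RNA that coats the inactive X, differed between libraries. Xist had 0.0739 normalised CPM in E10.5 replicate 2 and 9.38 in E12.5 replicate 2, and 209 to 2115 in the other 10 libraries. Mbnl3 was lowest within its stage in those same libraries, at 21.9 and 24.6 normalised CPM. So was Mbnl1, on chromosome 3, at 50.1 and 61.2. Mbnl2 and Rbfox2 were lowest in E10.5 replicate 2 only, and Ptbp2, Celf1 and Qk in E12.5 replicate 2 only. Whether the X chromosome had a part in the low values of Mbnl3 was not tested. Without both of those libraries, Mbnl3 still rose at E11.5 against E10.5 (log2 fold change 0.44, edgeR adjusted p = 0.0217) and at E14.5 against E10.5 (0.37, adjusted p = 0.0164).

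Within the family, Mbnl2 took the largest share of counts per kilobase of exon at each stage, at 49.6%, 48.6%, 59.1% and 58.6% from E10.5 to E14.5. The ratio of Mbnl2 to Mbnl1 was 1.88, 1.95 and 1.80 at E10.5, 2.29, 2.16 and 2.00 at E11.5, 2.48, 3.29 and 2.73 at E12.5, and 2.35, 2.53 and 2.34 at E14.5. Every later library lay above the E10.5 libraries, and E12.5 replicate 2 was the highest. Stages differed in the exact permutation test (p = 0.000325, adjusted 0.000606). The ratio of Mbnl3 to Mbnl1 was 1.09, 0.935 and 0.705 at E10.5, 1.48, 1.17 and 1.17 at E11.5, 0.862, 0.861 and 1.11 at E12.5, and 0.677, 0.770 and 0.649 at E14.5. Its stages differed as well (exact permutation test, p = 0.0138, adjusted 0.0138), with E11.5 above all other stages and an overlap between E14.5 and E10.5.

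CELF proteins bind GU-rich RNA, and the 2 members of this family moved in opposite directions. Celf1 (ENSMUSG00000005506, chromosome 2, positions 90940382 to 91019497) had 149.8, 137 and 133 normalised CPM at E10.5, 132, 123.2 and 134 at E11.5, 87.5, 67.5 and 83.7 at E12.5, and 60.3, 60.3 and 59.4 at E14.5. The first 2 stages overlapped, and each later stage lay below all libraries before it. Celf1 fell by 0.71 on the log2 scale at E12.5 against E11.5 (SE 0.091, edgeR adjusted p = 7.48e-05), 1.63-fold, and by 0.41 at E14.5 against E12.5 (SE 0.092, adjusted p = 0.00265). At E14.5 against E10.5 it was 2.33-fold lower (-1.22, SE 0.092, adjusted p = 8.61e-08), under all 23 alternatives. The E12.5 fall was lost with the covariate for alignments outside genes (-0.58, adjusted p = 0.0768, range over alternatives 4.50e-11 to 0.166).

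Celf2 (ENSMUSG00000002107, chromosome 2, positions 6539694 to 7509563) had 38.8, 48.6 and 40.7 normalised CPM at E10.5, 44.5, 39.8 and 42.8 at E11.5, 50.7, 62.2 and 62.3 at E12.5, and 155, 137 and 140.5 at E14.5. The first 2 stages overlapped, E12.5 lay above both and E14.5 far above E12.5. Celf2 rose 1.38-fold at E12.5 against E11.5 (log2 fold change 0.46, SE 0.10, edgeR adjusted p = 0.00279) and 2.47-fold at E14.5 against E12.5 (1.30, SE 0.10, adjusted p = 7.80e-07), the largest single step of any member. The whole course came to 1.76 (SE 0.11, adjusted p = 1.07e-08). The last 2 calls held under all 23 alternatives, and the E12.5 rise was lost with the covariate (0.58, adjusted p = 0.1198, range over alternatives 0.000187 to 1). Exon bases of Celf2 overlap Gm26565 on the other strand over 7.58% of their length, and that gene had 0 counts in every library.

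The ratio of Celf2 to Celf1 counts per kilobase of exon changed most of the 4 ratios. It was 0.0844, 0.116 and 0.0999 at E10.5, 0.110, 0.105 and 0.105 at E11.5, 0.189, 0.301 and 0.243 at E12.5, and 0.837, 0.742 and 0.772 at E14.5. E12.5 lay above both earlier stages and E14.5 above E12.5, with no overlap. The mean was 0.783 ± 0.0488 at E14.5, against 0.1001 ± 0.0158 at E10.5 (SD, n = 3 each), 7.88-fold higher as a ratio of geometric means (exact permutation test, p = 0.000455, adjusted 0.000606). Which of the 2 messages was the more abundant at E14.5 depended on the length used. Per kilobase of exon, Celf2 averaged 5.57 and Celf1 7.10 normalised CPM, while per kilobase of coding sequence Celf2 averaged 69.0 and Celf1 38.9.

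**Figure D2:**
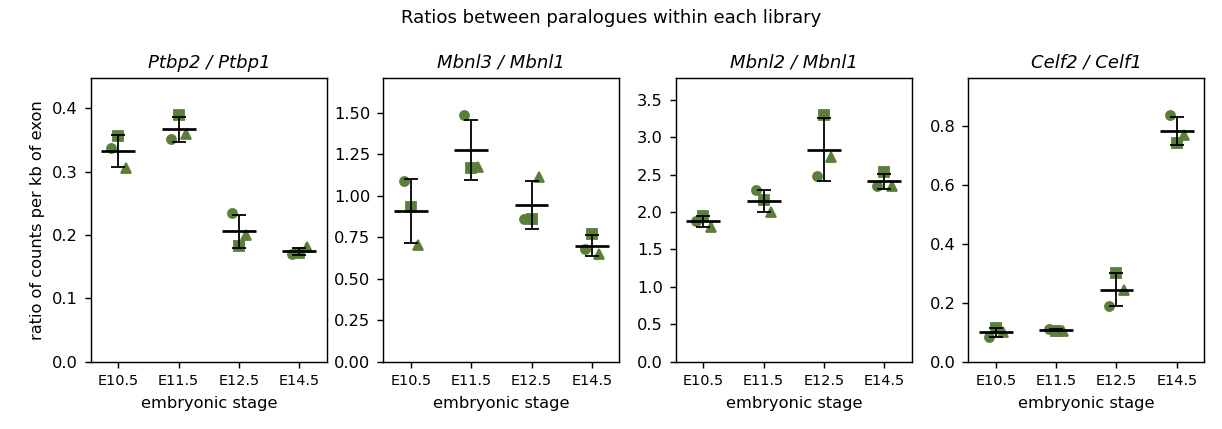
Ratio of counts per kilobase of exon between paralogues (y axis, from 0) in each library at E10.5, E11.5, E12.5 and E14.5 (x axis), with points for libraries, horizontal bars for stage means and error bars for the SD of 3 libraries. The ratio of Celf2 to Celf1 reaches 0.742 to 0.837 at E14.5, and that of Ptbp2 to Ptbp1 lies at 0.170 to 0.181.

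Rbfox2 (ENSMUSG00000033565, chromosome 15, positions 77078990 to 77307004) was high throughout and rose modestly. It had 279, 261 and 270.2 normalised CPM at E10.5, 312, 294 and 303 at E11.5, 264, 277 and 329 at E12.5, and 369.5, 339.9 and 351 at E14.5. E14.5 lay above all other libraries, and E12.5 spread across both earlier stages. Rbfox2 rose 1.22-fold at E14.5 against E12.5 (log2 fold change 0.28, SE 0.088, edgeR adjusted p = 0.0174) and 1.31-fold at E14.5 against E10.5 (0.39, SE 0.088, adjusted p = 0.00145). The first call was lost without E12.5 replicate 1 (0.20, adjusted p = 0.104), E12.5 replicate 2 (0.24, adjusted p = 0.0604) or E14.5 replicate 1 (0.26, adjusted p = 0.0742), with the stages compared alone (0.29, adjusted p = 0.0667), without the libraries low in Xist (0.25, adjusted p = 0.0641), with every gene that had a count kept (0.27, adjusted p = 0.0557) and in the test for a change over 1.5-fold, so that 16 of 23 alternatives kept it, with a range of 0.000719 to 1. The second was 0.34 with the covariate for alignments outside genes (adjusted p = 0.115, range over alternatives 3.53e-05 to 1).

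Read by step, 1 of the 9 members rose and none fell at E11.5 against E10.5, where 12.2% of all genes tested were called higher and 12.9% lower. At E12.5 against E11.5, 2 rose and 2 fell (27.1% of all genes higher, 22.2% lower). At E14.5 against E12.5, 4 rose and 3 fell (23.0% higher, 24.0% lower), and at E14.5 against E10.5, 5 rose and 4 fell (36.6% higher, 33.8% lower). The joint test for any difference among the 4 stages called all 9, as it did 81.6% of all genes. The median log2 fold change over the members and over all genes was -0.01 and -0.04 at E11.5 against E10.5, -0.12 and 0.06 at E12.5 against E11.5, 0.17 and -0.01 at E14.5 against E12.5, and 0.39 and 0.06 at E14.5 against E10.5. At the E12.5 step without E12.5 replicate 3, 7 members were called instead of 4, with Mbnl3 (-0.41, adjusted p = 0.0268), Rbfox2 (-0.20, adjusted p = 0.0412) and Qk (-0.34, adjusted p = 0.00683) added as lower, and with the covariate for alignments outside genes only Ptbp2 was called. The comparisons share libraries and are not independent of each other.

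**Figure D3:**
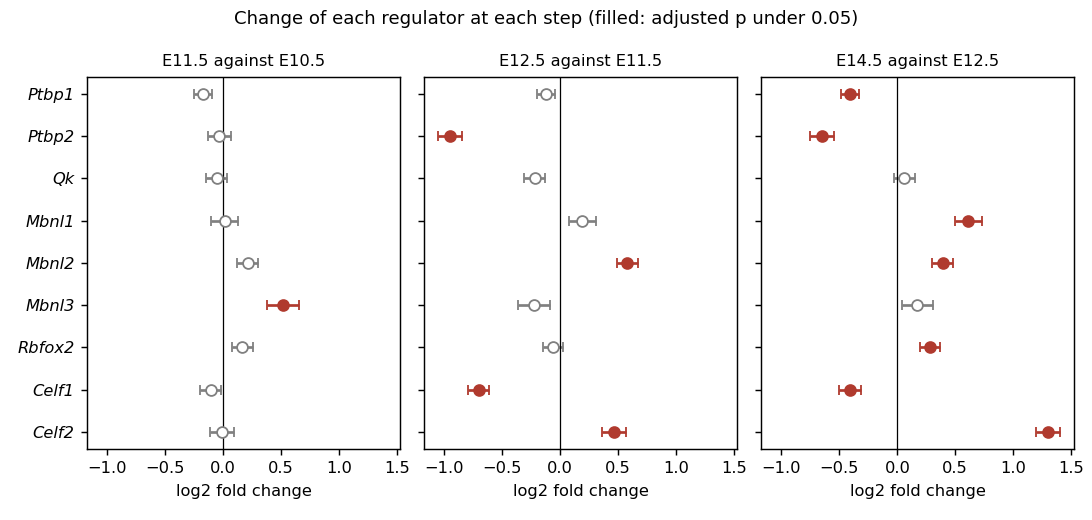
Log2 fold change of each member (x axis; points with SE bars from the edgeR fit) at each step from one stage to the next, later over earlier, with filled points for adjusted p under 0.05. Ptbp2 and Celf1 lie left of 0 and Celf2 and Mbnl2 right of 0 at both later steps, and only Mbnl3 is filled at E11.5 against E10.5.

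Scaling bears on small changes. With libraries scaled by their totals alone, all genes shifted in their median log2 fold change by 0.03, 0.21 and 0.08 at the 3 successive steps and by 0.32 at E14.5 against E10.5. All genes then split into 6905 higher and 1875 lower at E12.5 against E11.5, against 4968 and 4079 with TMM, and into 8828 higher and 4114 lower at E14.5 against E10.5, against 6721 and 6211. The falls of Ptbp1, Ptbp2 and Celf1 at E14.5 against E10.5 were smaller on that scale, at -0.38, -1.31 and -0.90 (edgeR adjusted p = 0.000411, 2.55e-08 and 3.33e-06). The rises of Mbnl2 and Celf2 were larger, at 1.498 and 2.08, and Qk turned as given above. At E12.5 against E11.5 the uncalled values of Ptbp1 and Rbfox2 turned to 0.09 and 0.16, and Mbnl1 became a call (0.41, adjusted p = 0.0310, range over alternatives 0.0310 to 1).

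Levels of the members were set against each other per kilobase of annotated exon. At E10.5 the order of mean normalised CPM per kilobase was Ptbp1 at 104, Ptbp2 at 34.6, Rbfox2 at 33.2, Qk at 20.1, Celf1 at 16.6, Mbnl2 at 5.99, Mbnl1 at 3.21, Mbnl3 at 2.86 and Celf2 at 1.65. Ptbp2 overlapped Rbfox2, and Mbnl1 overlapped Mbnl3, and other neighbours did not overlap. At E14.5 the order was Ptbp1 at 63.9, Rbfox2 at 43.4, Qk at 17.3, Mbnl2 at 13.6, Ptbp2 at 11.1, Celf1 at 7.10, Mbnl1 at 5.65, Celf2 at 5.57 and Mbnl3 at 3.94, and of the neighbours only Mbnl1 and Celf2 overlapped. Exon length includes long untranslated ends that not every transcript uses, and the order differed per kilobase of coding sequence. At E10.5 it was then Ptbp1 at 269, Qk at 264, Ptbp2 at 191, Rbfox2 at 184, Celf1 at 90.7, Mbnl2 at 62.2, Mbnl1 at 45.9, Mbnl3 at 22.5 and Celf2 at 20.4. At E14.5 it was Rbfox2 at 241, Qk at 227, Ptbp1 at 165, Mbnl2 at 141, Mbnl1 at 80.8, Celf2 at 69.0, Ptbp2 at 61.5, Celf1 at 38.9 and Mbnl3 at 31.1. On both scales Ptbp2 stood above Mbnl2 at E10.5 and below it at E14.5.

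Other genes of the same families were read from a list of 7. At E14.5 against E10.5, 3 of the 7 rose, 1 fell and 3 did not pass, against 36.6% of all genes higher and 33.8% lower. Their median log2 fold change was 0.41, against 0.06 over all genes. Rbfox1, the paralogue of Rbfox2 known from neurons, heart and skeletal muscle, averaged 7.26 ± 1.19 normalised CPM at E14.5 and 0.863 ± 0.0885 at E10.5 (SD, n = 3 each; log2 fold change 3.07, edgeR adjusted p = 1.40e-07). Celf5 averaged 2.94 ± 0.704 at E14.5 and 0.889 ± 0.164 at E10.5 (1.73, adjusted p = 0.000530), and Celf4 7.54 ± 0.726 and 5.67 ± 0.265 (0.41, adjusted p = 0.0151). Ptbp3, the remaining Ptb paralogue, averaged 187 ± 10.99 at E14.5 and 224 ± 10.8 at E10.5 and fell by 0.26 on the log2 scale (adjusted p = 0.0190), but had 0.06 with library totals (adjusted p = 0.569).

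Genes for proteins known to work with Ptb or Rbfox complexes mostly fell over the same course. Of 10 listed, 9 could be tested, and at E14.5 against E10.5 8 of them fell and 1 rose, with a median log2 fold change of -0.76. Of all genes, 33.8% were called lower and 36.6% higher. With library totals 7 fell and 1 rose. Ilf2, a subunit of a double-stranded RNA binding complex, averaged 152 ± 7.06 normalised CPM at E14.5 and 391 ± 36.8 at E10.5 (log2 fold change -1.36, edgeR adjusted p = 6.11e-08). Hnrnpc averaged 430.4 ± 28.7 at E14.5 and 1033 ± 154 at E10.5 (-1.26), and Hnrnpm 478 ± 22.8 and 1004 ± 87.6 (-1.07). Raver2, which binds Ptb, was the 1 that rose (0.30, adjusted p = 0.00859). Its paralogue Raver1 had 5 counts over all 12 libraries and was not tested.

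General hnRNP genes, which package nascent transcripts in every cell, fell as a group as well. At E14.5 against E10.5, 14 of 14 fell, against 33.8% of all genes, with log2 fold changes of -1.35 to -0.20 and a median of -0.87. With library totals 12 of 14 fell, and Hnrnpul1 had 0.12 (adjusted p = 0.162). At E12.5 against E11.5, 12 of 14 fell, with a median of -0.54, and at E11.5 against E10.5 1 fell. Of all genes, 22.2% and 12.9% were called lower in these comparisons. Hnrnpd averaged 177 ± 8.78 normalised CPM at E14.5 and 450.3 ± 33.9 at E10.5 (-1.35, edgeR adjusted p = 4.06e-08), and Hnrnpa1 1427 ± 72.5 and 3189.8 ± 259 (-1.16, adjusted p = 1.07e-06). The log2 fold change of Ptbp1 over the same course, -0.70, lay within the range of these genes, as did that of Celf1, -1.22, and those of Ptbp2, -1.64, and of Celf2, 1.76, lay outside it.

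Splicing regulators known from epithelium, muscle or neurons went both ways. Of 14 listed, 4 rose, 6 fell and 4 did not pass at E14.5 against E10.5, against 36.6% of all genes higher and 33.8% lower. Rbm24 and Rbm38 are both known from muscle. Rbm24 averaged 28.5 ± 1.87 normalised CPM at E14.5 and 1.21 ± 0.191 at E10.5 (log2 fold change 4.54, edgeR adjusted p = 2.58e-08), while Rbm38 averaged 10.8 ± 0.403 and 33.4 ± 2.36 (-1.63, adjusted p = 1.86e-08). The neuronal genes Elavl4 and Srrm4 averaged 6.05 ± 4.56 and 1.59 ± 0.582 at E14.5, against 51.7 ± 23.0 and 12.6 ± 5.34 at E10.5 (-3.07, adjusted p = 0.000514, and -2.97, adjusted p = 0.000260). Nova1, Nova2, Srrm3 and Khdrbs2 had -0.29, -0.06, -1.10 and 0.22 and did not pass (adjusted p = 0.148, 0.873, 0.140 and 0.378). Esrp2, an epithelial splicing factor, rose by 1.39 on the log2 scale (adjusted p = 2.77e-05).

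Ptbp1 and Ptbp2 are joined in neurons to a circuit in which REST, a repressor of neural genes, holds back miR-124, a microRNA that targets Ptbp1. Of 7 genes of that circuit, 3 rose and 2 fell at E14.5 against E10.5, against 36.6% of all genes higher and 33.8% lower, and with library totals 3 rose and 1 fell. Rest averaged 91.6 ± 0.889 normalised CPM at E14.5 and 115 ± 7.62 at E10.5 (log2 fold change -0.32, edgeR adjusted p = 0.00451), but had -0.0031 with library totals (adjusted p = 0.981), and it was highest at E11.5, at 161 ± 10.9. Its cofactors Ctdsp2, Rcor1 and Ctdspl rose, by 0.90, 0.59 and 0.50 (edgeR adjusted p = 6.01e-06, 0.000960 and 0.000745). Ctdsp1, of the same phosphatase family as Ctdsp2 and Ctdspl, had -0.16 (adjusted p = 0.0586), and fell by 0.46 at E14.5 against E12.5 (adjusted p = 0.000209). The miR-124 host genes averaged under 3 normalised CPM at every stage, and mature microRNA was not measured by these libraries.

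**Figure D4:**
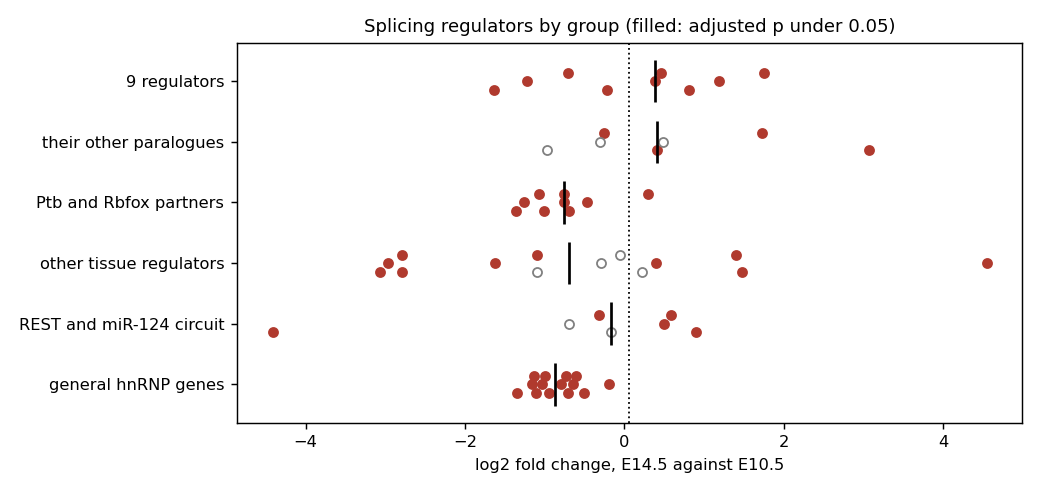
Log2 fold change at E14.5 against E10.5 (x axis) of single genes (points, filled for adjusted p under 0.05) in the 9 regulators and in 5 other groups of splicing genes (rows), with a bar at each group's median and a dotted line at the median of all genes, 0.06. The 9 regulators lie on both sides of 0, and all 14 general hnRNP genes lie left of it.

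Markers of cell types changed between stages as well, not always at the steps where the members changed. The labelled tissue was checked with 6 mesenchyme markers (Prrx1, Twist1, Pdgfra, Msx1, Alx1, Dlx1), all of which had counts in every stage. Their sum was 1102 to 1490.2 normalised CPM in the E10.5 libraries, 1874 to 2037 in those of E11.5, 1120 to 1391 by E12.5, and by E14.5 1088 to 1157. Of the 6, 4 fell and 1 rose at each of the later steps, where Ptbp2 and Celf1 fell. Of all genes, 22.2% fell and 27.1% rose at E12.5 against E11.5, and 24.0% fell and 23.0% rose at E14.5 against E12.5. The sum of 5 erythroid markers (Hba-x, Hbb-bh1, Hbb-y, Hba-a1, Alas2) was 3550.0 to 4085 in the E10.5 libraries, 5654 to 7100.4 in those of E11.5, 2722 to 3774 by E12.5, and by E14.5 663 to 1385. Of these 5, 2 fell between E11.5 and E12.5 and 3 fell between E12.5 and E14.5, and none rose at either step. At E14.5 against E10.5, 3 fell and 1 rose (33.8% of all genes lower, 36.6% higher). Hba-x, Hbb-bh1 and Hbb-y averaged 705, 1218 and 1692 normalised CPM at E10.5 and 23.2, 1.79 and 241 at E14.5. Hba-a1 averaged 222 at E10.5 and 606 at E14.5, and Alas2 29.5 and 35.4. The erythroid sum is therefore not a measure of the amount of blood. The part of mesenchyme and blood in the falls of Ptbp1, Ptbp2 and Celf1 was not tested. The sum of 8 muscle markers (Myod1, Myog, Myf5, Actc1, Tnnt1, Myh3, Ttn, Des) was 35.8 to 47.1 at E10.5, 30.4 to 44.3 in the E11.5 libraries, 171 to 329 in the E12.5 libraries and, by E14.5, 1575 to 1986, and all 8 rose at both later steps, where Celf2 and Mbnl2 rose. At E12.5, replicate 1 had the lowest muscle sum and the lowest Celf2, and at E14.5, replicate 3 had the lowest muscle sum with Celf2 at 140.5 normalised CPM, between the other libraries. The sum of 6 leukocyte markers (Ptprc, Csf1r, Cd68, Aif1, Tyrobp, Fcer1g) was 30.8 to 32.4, 20.4 to 22.5, 39.6 to 45.7 and 83.6 to 91.0 from E10.5 to E14.5, and that of 6 endothelium markers (Pecam1, Cdh5, Kdr, Tie1, Tek, Emcn) was 241 to 326, 153 to 190.4, 255 to 380.0 and 400.3 to 459. The sum of 6 osteoblast markers (Runx2, Sp7, Ibsp, Bglap, Alpl, Dmp1) was 16.5 to 19.9 at E10.5 and 1549 to 2082 at E14.5. The part of muscle, leukocytes, vessels and bone in the rises of Celf2, Mbnl1, Mbnl2 and Rbfox2 was not tested.

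Likeness over the 12 libraries was described with Pearson's r of log2(CPM + 1), libraries scaled by their totals. The points share stage, depth and cell makeup, and no test was made. The protein-coding genes most like each member were Six4 (r = 0.973) and Hspbap1 (0.962) for Ptbp1, Haus3 (0.994) and Hmgb3 (0.994) for Ptbp2, Slc35a1 (0.924) and Arl5a (0.916) for Qk, St3gal6 (0.986) and Plekhh2 (0.986) for Mbnl1, Zdhhc1 (0.996) and Atp11a (0.996) for Mbnl2, and Sytl5 (0.974) and Wipf1 (0.956) for Mbnl3. For Rbfox2 they were Osbp (0.995) and Gbf1 (0.991), for Celf1 Zfp462 (0.993) and Zfp518b (0.988), and for Celf2 Neto1 (0.997) and Pygm (0.996). Pygm encodes the muscle form of glycogen phosphorylase and averaged 16.9 normalised CPM at E14.5 and 0.885 at E10.5. Among the members, Ptbp2 and Celf1 were most alike (r = 0.970), and Ptbp2 and Mbnl2 (-0.966) and Ptbp2 and Celf2 (-0.963) ran most nearly opposite.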

How the data were processed

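Per the labels' protocols, total RNA was extracted with Trizol, poly-T selected and made into libraries with an NEBNext Ultra kit that does not mark strand. The submitters' processing notes name the mm10 build, HTSeq 0.12.4, STAR 2.7.3a and FastQC, without role, with the annotation release and strand setting not given in the sources used here. Each deposited file lists raw counts for 53801 Ensembl genes, which the authors had not normalized. Closing entries for alignments with no gene were left out throughout, and those outside annotated genes made up 1.92% to 6.21% of listed alignments. By stage this share was 1.92% to 4.88%, 2.16% to 2.42%, 5.03% to 5.43% and 5.78% to 6.21% from E10.5 to E14.5. Depth was 28294837 to 33941430 counts in genes per library. The title of E14.5 replicate 1 names 2 runs, which are deposited and were used as 1 library. The labels call the libraries biological replicates but do not tie them to separate litters, and p-values therefore reflect only how these libraries vary.

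Genes were kept by filterByExpr (minimum count 10, 18365 genes) and scaled by TMM. All 12 libraries entered 1 quasi-likelihood fit with stage as the factor (edgeR 4.0.16 in R 4.3.3, 8 residual degrees of freedom). Benjamini-Hochberg adjustment ran over all genes tested. Ratios were tested by exact permutation over libraries. Gene positions and exon lengths came from GENCODE M21 and promoters from RefSeq. Alternatives were other scaling and filters, DESeq2 1.42.0, limma-voom (limma 3.58.1), the compared stages alone, the replicate number as a block, haemoglobin and mitochondrial genes left out, the percentage of alignments outside genes as covariate, a change over 1.5-fold and each library left out in turn. Library totals as scaling, and leaving out libraries under 100 normalised CPM of Xist, were added after the data were seen.

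The members, gene lists and tests were chosen with earlier results of these data known. Beyond the members, up to 3 genes per list were named by the largest called change at E14.5 against E10.5 for which the higher stage averaged 1 CPM or more and the libraries of both stages did not overlap, and the 2 genes most like each member. Ptbp3, Raver1, Raver2, Rest, Esrp2, Rbm38, Nova1, Nova2, Srrm3, Khdrbs2, Ctdsp1, Hnrnpul1, Celf3, Hnrnpab, the miR-124 host genes and the markers outside the lists' largest changes were named after their values were seen. The neuron, mesenchyme and erythroid marker lists each leave out 1 gene that is not reported here.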

Additional observations from a re-analysis of the deposited data

How the results depend on the processing

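The numbers of members called were 1, 4, 7 and 9 at E11.5 against E10.5, E12.5 against E11.5, E14.5 against E12.5 and E14.5 against E10.5, and 9 in the joint test. Leaving out each library in turn gave 0 to 2, 4 to 7, 6 to 7, 7 to 9 and 7 to 9. A test for a change over 1.5-fold left 0, 1, 1 and 5 members and 1127, 2344, 2774 and 7673 of all genes, against 4615, 9047, 8646 and 12932; the members left were Ptbp2 at E12.5 against E11.5, Celf2 at E14.5 against E12.5, and Ptbp2, Mbnl1, Mbnl2, Celf1 and Celf2 at E14.5 against E10.5. With a covariate for the share of alignments outside genes, 2 members were called at E11.5 against E10.5, 1 at E12.5 against E11.5 and 5 at E14.5 against E10.5. All genes called then fell to 693 at E12.5 against E11.5 and 7484 at E14.5 against E10.5. The share did not overlap between the stages of either of these 2 comparisons, so that stage and covariate can hardly be told apart in them. DESeq2 called 2 members at E11.5 against E10.5. Qk at E14.5 against E10.5 turned to 0.11 with library totals. Over all single-member results and alternatives, 773 kept their side of the threshold, of which 750 also kept their sign and 23 values that passed in neither fit took the other sign, while 40 lost the call, 14 gained it and 1 reversed. Each of the 4 ratios kept its direction and its call with the replicate number as a block and with each library left out in turn. Coding length in place of exon length multiplies a ratio by a constant, so that it could not change the test. The other alternatives were not run for the ratios. Counts of all genes with each library left out were 3145 to 4984, 7370 to 9573, 6838 to 9218, 12037 to 13368 and, in the joint test, 14276 to 15381.

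Of 18 pairs of libraries that share a replicate number, 4 had deviations correlated over 0.1, with a range of -0.119 to 0.177. All 4 (0.119, 0.132, 0.149 and 0.177) joined libraries of E10.5, E11.5 and E12.5, where pairs of different numbers reached 0.0633. Pairs of different numbers that included E14.5 reached 0.228. Shared handling of libraries with the same number was not tested. With the replicate number as a block, 1, 4, 7 and 9 members were called, and 9 in the joint test, the same calls as without it. Of all genes, 4687, 9194, 8743 and 12979 were called with the block, and 14963 in the joint test. The ratio of Celf2 to Celf1 had a log2 difference of 2.98 with adjusted p = 0.00694 in the exact permutation test within blocks, and that of Mbnl3 to Mbnl1 -0.36 with adjusted p = 0.0417.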

Other observations

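Celf3, a CELF gene known from neurons, varied between libraries of the same stage and was lowest at E11.5. It averaged 6.27 normalised CPM at E10.5 (range 2.72 to 9.76), 0.644 at E11.5 (0.249 to 1.10), 12.9 by E12.5 (3.74 to 21.0) and 3.19 at E14.5 (1.98 to 4.20). Celf3 fell at E11.5 against E10.5 (log2 fold change -3.27, edgeR adjusted p = 0.00342) and rose at E12.5 against E11.5 (4.31, adjusted p = 0.000290). Srrm4, which promotes neuronal microexons, averaged 0.609 normalised CPM at E11.5 and 12.6 at E10.5 (-4.36, edgeR adjusted p = 0.000216). The sum of 8 neuron markers was 124 to 217 normalised CPM at E11.5 and 339 to 699 at E10.5, and its part in these values was not tested. The host gene Mir124-2hg ranged from 0.0987 to 7.21 normalised CPM among the E10.5 libraries, where the neuron sum was highest in the library with the highest Mir124-2hg. Hnrnpab ranged from 287 to 621 normalised CPM among the E11.5 libraries.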
